A study of Mus musculus with 12 samples.

Results

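The genes described here are 9 cathepsin inhibitors and cysteine cathepsins, Ctla2a, Ctla2b, Cst3, Cstb, Ctsl, Ctsb, Ctss, Ctsc and Ctsz, out of 23420 genes in the deposited expression table. They were taken by gene symbol, and the set was chosen by measured values: Ctla2a was higher in PIR+ KO cells and Ctsl higher in PIR- KO cells than in their wt counterparts. The KO over wt values are therefore given as a description with no test, and Ctla2a and Ctsl have no test in any comparison. The other members were tested between PIR+ and PIR- cells.

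RNA was measured in 12 libraries of mouse fetal liver cells sorted by flow cytometry, with 3 libraries in each of 4 groups: PIR+ KO, PIR- KO, PIR+ wt and PIR- wt. PIR is the paired immunoglobulin-like receptor, a family of activating and inhibitory receptors of blood cells encoded by the Pira genes and Lilrb3. All groups are labelled lineage-negative, c-Kit+ and, in the markers field, IL7Ra+, whereas the series title calls the PIR- cells IL7R-. Each tube held 100 cells and received the same quantity of ERCC control RNA. No age beyond the embryonic day is labelled, no strain and no target gene of the KO is named, so the targeted gene could not be checked. Whether the libraries of a group came from separate embryos is not stated, so the p-values measure the spread between these libraries, which may be technical.

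The titles, which match the genotype field, set the groups. In 6 of the 12 libraries the markers field gives the other PIR sign, and the labelled embryonic day, E12.5 or E14.5, goes with the markers field. Most KO libraries are labelled E14.5 and most wt libraries E12.5. Where title and markers field match, all PIR+ libraries are labelled E12.5 and all PIR- libraries E14.5. A fit on those 6 libraries cannot tell PIR sign and labelled day apart. The receptor genes went with the titles: Pira2 was 9.3 to 24.1 in PIR+ KO and 28.2 to 35.7 in PIR+ wt libraries and was listed at 0 in all PIR- libraries, as was Lilrb3. Kit was detected in all 12 libraries, at 18.6 to 56.3. Il7r RNA was also detected in all 12, including the PIR- cells that the series title calls IL7R-. It was 16.1 to 24.4 in PIR- KO and 16.4 to 20.9 in PIR- wt libraries. In PIR+ cells Il7r was 9.7 to 16.0 in KO and reached 20.3 in wt libraries. These are RNA values, and whether the PIR- cells carried the receptor protein was not tested. Summed values ran from 155374 to 284648 per library and averaged 237066 ± 29010 in PIR+ and 180810 ± 24473 in PIR- libraries (SD, n = 6 each, ratio 1.31, exact two-sided permutation p = 0.00649). The median gene was correspondingly higher in PIR+ cells, by 0.39 in KO and 0.51 in wt on the log2 scale, and higher in KO than in wt by 0.09 in PIR+ and 0.20 in PIR- cells. Values are normalized molecule counts as deposited, and 0.5 to 0.8 was the most frequent value above 0 in a library, taken here as about 1 molecule.

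Cysteine cathepsins are papain-like proteases that work mainly in lysosomes and endosomes. They are made as proenzymes whose propeptide blocks the active site until it is cut off, and once active they are held in check by inhibitors. The mouse Ctla2 proteins resemble such a propeptide standing alone, and CTLA-2 alpha, encoded by Ctla2a, inhibits cathepsin L. Cystatin C, encoded by Cst3, is a secreted inhibitor of these enzymes, and cystatin B, encoded by Cstb, acts inside the cell.

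Ctla2a, Ctla2b and Ctsl lie on the minus strand of chromosome 13 (GRCm38, GENCODE M21), Ctla2b at 60895350 to 60897447, Ctla2a at 60934155 to 60936625 and Ctsl at 64359337 to 64370890. The Ctla2 genes are 36.7 kb apart and Ctsl is 3.42 Mb beyond Ctla2a. The other members are spread over chromosomes 2 (Cst3 and Ctsz), 3 (Ctss), 7 (Ctsc), 10 (Cstb) and 14 (Ctsb). The 250 bases before an annotated start of both Ctla2 genes are shown, since both genes were higher in PIR+ KO cells and their copies are hard to tell apart. The sequences are from RefSeq (GRCm38.p6), written 5′ to 3′ on the minus strand, at chr13:60936626-60936875 for Ctla2a and chr13:60897448-60897697 for Ctla2b. Capitals mark matches to the motifs searched.
Ctla2a: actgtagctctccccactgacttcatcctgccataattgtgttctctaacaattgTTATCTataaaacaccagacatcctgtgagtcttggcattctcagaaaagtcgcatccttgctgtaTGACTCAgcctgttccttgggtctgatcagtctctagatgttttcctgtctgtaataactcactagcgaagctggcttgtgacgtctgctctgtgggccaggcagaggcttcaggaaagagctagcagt
Ctla2b: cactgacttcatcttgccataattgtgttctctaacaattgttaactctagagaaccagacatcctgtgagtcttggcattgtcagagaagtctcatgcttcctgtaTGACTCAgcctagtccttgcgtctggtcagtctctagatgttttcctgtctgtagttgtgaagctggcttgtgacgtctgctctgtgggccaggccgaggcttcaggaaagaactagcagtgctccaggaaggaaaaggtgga

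The Ctla2 start regions were identical at 209 of 228 aligned bases (91.7%). Both strands were searched for 4 motifs. CACGTG is an E-box bound by the lysosomal regulator TFEB. TGTGGT is bound by Runx factors. AGATAA is bound by the factors of the GATA family. TGACTCA is bound by AP-1. TGACTCA was present in both Ctla2 windows, at position -129 from that start in Ctla2a and -143 in Ctla2b, and in 4.46% of 32851 mouse promoter windows. AGATAA was present on the reverse strand of the Ctla2a window (TTATCT) and in that of Ctsz, and in 9.99% of all windows. CACGTG, in 6.02% of windows, was found in the Ctsl window, and TGTGGT, in 14.0%, in none of the 7 members with an entry. The Ctsl window, chr13:64370521-64370770, lies before a RefSeq start but inside the GENCODE span of the gene. The bases upstream of that span were not searched. Ctla2a has a second annotated start, from which TGACTCA lies at -188 and whose window, which is not shown, holds no AGATAA. These are letter matches and no binding was measured. The transcripts are also alike, with 660 of 704 aligned bases identical (93.8%) between Ctla2a-201 and Ctla2b-201. The last 300 bases of Ctla2a-201, near which oligo-dT priming starts, shared only a run of 9 bases with Ctla2b-201, whereas the last 300 of Ctla2b-201 aligned to Ctla2a-201 at 143 of 162 bases (88.3%). The counting tool is not given in the sources used here, so the split of reads between them is uncertain, more so for Ctla2b.

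Ctla2a was high in PIR+ KO cells, intermediate in PIR+ wt cells and at a few molecules or fewer in PIR- cells of either genotype. Its values were 33.5, 35.5 and 36.5 in the PIR+ KO libraries and 9.5, 8.1 and 11.1 in the PIR+ wt libraries. In PIR- cells it was 1.1, 2.9 and 3.1 in KO and 0, 0.8 and 1.6 in wt libraries. Every PIR+ KO library stood above every PIR+ wt library, and both stood above all PIR- libraries, while PIR- KO and PIR- wt libraries overlapped. The means were 35.2 ± 1.53 in PIR+ KO and 9.57 ± 1.50 in PIR+ wt cells (SD, n = 3 each), a ratio of 3.68. On the log2(value + 1) scale the KO over wt difference was 1.78 ± 0.39 (SE) in PIR+ cells and 0.95 ± 0.39 in PIR- cells, and these differed by 0.84 ± 0.55. The PIR+ over PIR- difference was 3.49 ± 0.39 in KO and 2.65 ± 0.39 in wt cells. The size of the KO effect in PIR+ relative to PIR- cells turned with the added constant and with the libraries used. With 0.1 in place of 1 KO over wt was 1.88 in PIR+ and 2.08 in PIR- cells. Without the 5 globin-rich libraries, at the constant of 1, it was 1.92 and 2.00. That fit leaves 1 PIR- wt library, replicate 1, where Ctla2a was 0. Over all alternative settings the KO over wt difference in PIR+ cells stayed between 1.67 and 1.94.

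**Figure D1:**
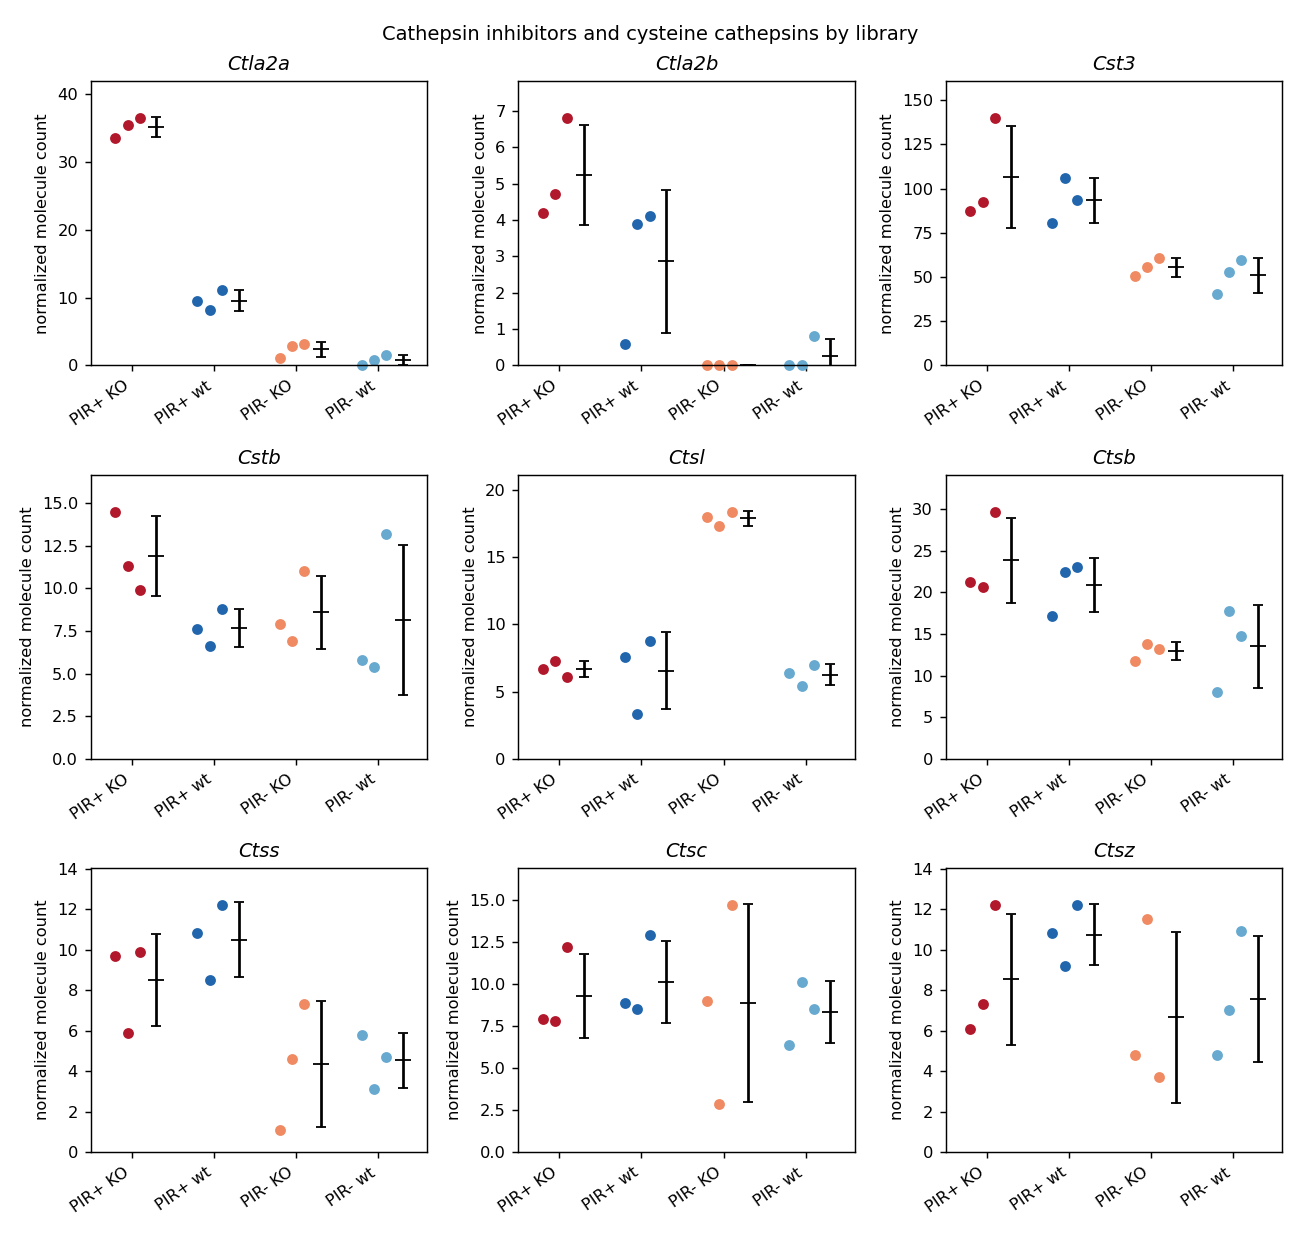
Normalized molecule counts (y axes) of the 9 genes in each library, by group. Points are libraries, and the mark with bar is the mean ± SD of 3 libraries. Ctla2a is at 33.5 to 36.5 in PIR+ KO cells and Ctsl at 17.3 to 18.4 in PIR- KO cells, each above all other groups.

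The neighbouring copy Ctla2b was much less abundant and followed the same order of groups in PIR+ cells. It was 4.2, 4.7 and 6.8 in PIR+ KO and 0.6, 3.9 and 4.1 in PIR+ wt libraries. In PIR- cells it was listed at 0 in all 3 KO libraries and at 0, 0 and 0.8 in wt libraries. PIR+ KO libraries lay above PIR+ wt libraries, by a margin of less than 1 molecule (4.2 against 4.1), at a ratio of means of 1.83. Ctla2b was below 10 in all 12 libraries and did not pass the filter used for testing. In a fit with no filter it was higher in PIR+ than in PIR- cells in KO (limma, adjusted p = 0.000692) and in wt (adjusted p = 0.0312). The part of reads shared with Ctla2a in these values was not tested.

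Sex-linked RNAs also differed between the PIR+ groups. Xist, which coats the inactive X, ranged over 31.3 to 34.2 in PIR+ KO and 12.7 to 18.4 in PIR+ wt libraries, and the Y-linked Ddx3y over 0.8 to 2.0 in PIR+ KO and 5.4 to 7.9 in PIR+ wt libraries. Both were chosen after their values were seen. The summed level of 8 endothelial marker genes, all above 0 in at least 1 library, was 11.8 to 18.1 in PIR+ KO, 5.3 to 12.2 in PIR- KO, 5.3 to 10.2 in PIR+ wt and 6.2 to 37.3 in PIR- wt libraries. The highest sum was in PIR- wt cells, and the sums of PIR+ KO and PIR+ wt libraries did not overlap. Kdr was at 0 in both PIR+ groups. The other endothelial markers each reached a higher value in PIR+ KO than in PIR+ wt libraries. Emcn, for example, was 1.5 to 3.9 in PIR+ KO and 0 to 1.4 in PIR+ wt libraries. Of 7 mast cell and basophil markers, Fcer1a, Mcpt4, Mcpt8, Tpsb2, Cma1 and Ms4a2 were listed at 0 throughout. The other, Cpa3, was 0.5 to 9.1 in PIR+ KO, 0 to 4.6 in PIR- KO, 1.3 to 4.4 in PIR+ wt and 0 in PIR- wt libraries. The part of sex balance and of these cells in the Ctla2a difference was not tested, and in such bulk samples fewer cells of a type and less RNA per cell cannot be told apart.

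Cst3 was higher in PIR+ cells of both genotypes, and its libraries overlapped between genotypes. It was 87.2, 92.5 and 139.9 in PIR+ KO and 50.3, 55.4 and 61.0 in PIR- KO libraries. In wt it was 80.6, 105.9 and 93.6 in PIR+ and 40.3, 52.7 and 59.7 in PIR- libraries. In both genotypes the lowest PIR+ library was above the highest PIR- library. The difference was 0.90 ± 0.20 in KO (ratio of means 1.92, limma adjusted p = 0.000234) and 0.87 ± 0.20 in wt cells (ratio 1.83, adjusted p = 0.000252). Once the libraries were scaled by median-of-ratios factors, so that the median gene is centred, it was 0.50 in KO and 0.36 in wt and was still called, and it was called under all alternatives. KO over wt was 0.16 ± 0.20 in PIR+ and 0.14 ± 0.20 in PIR- cells, with overlapping libraries. In the authors' deposited table, the p-value of Cst3 for PIR+ wt against PIR- wt was 0.0677.

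Cstb gave no called difference between PIR+ and PIR- cells. It averaged 11.9 ± 2.36 in PIR+ KO libraries, the lowest at 9.9, and was 7.9, 6.9 and 11.0 in PIR- KO libraries, which overlapped. In wt it was 7.6, 6.6 and 8.8 in PIR+ and 5.8, 5.4 and 13.2 in PIR- libraries. The PIR+ over PIR- difference was 0.43 ± 0.33 in KO (adjusted p = 0.32) and 0.02 ± 0.33 in wt cells (adjusted p = 0.967). Every PIR+ KO library was above every PIR+ wt library, at 0.57 ± 0.33 on the log2 scale.

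Among the proteases, Ctsl was raised in 1 group alone, the PIR- KO cells. Cathepsin L is a lysosomal endopeptidase that also cuts the invariant chain of class II molecules in mouse thymic epithelium. Its gene was 18.0, 17.3 and 18.4 in PIR- KO and 6.4, 5.4 and 7.0 in PIR- wt libraries. In PIR+ cells it was 6.7, 7.3 and 6.1 in KO and 7.6, 3.3 and 8.8 in wt libraries. The PIR- KO libraries lay close together and above all 9 others, which overlapped between the remaining groups. The means were 17.9 ± 0.557 in PIR- KO and 6.27 ± 0.808 in PIR- wt cells (SD, n = 3 each), a ratio of 2.86 and a log2 difference of 1.38 ± 0.34 (SE), with a range of 1.21 to 1.51 over the alternatives. In PIR+ cells KO over wt was 0.11 ± 0.34, and the KO effect in PIR+ minus that in PIR- cells was -1.28 ± 0.47. PIR+ over PIR- was -1.30 ± 0.34 in KO and -0.02 ± 0.34 in wt cells.

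The inhibitor gene Ctla2a and the gene of the enzyme it inhibits, Ctsl, were each highest in a different KO subset. In PIR+ KO cells Ctla2a averaged 35.2 and Ctsl 6.70 ± 0.60, and in PIR- KO cells Ctla2a averaged 2.37 ± 1.10 and Ctsl 17.9. Ctsl passed the filter through the 3 PIR- KO libraries alone, and Ctla2a through the PIR+ KO libraries and 1 PIR+ wt library. The inclusion of each in the fit thus rests on the group where it is high.

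Ctsb was higher in PIR+ cells on the deposited scale. Cathepsin B is both an endopeptidase and a dipeptidyl carboxypeptidase. It was 21.2, 20.6 and 29.7 in PIR+ KO and 11.7, 13.8 and 13.2 in PIR- KO libraries, without overlap. In wt it was 17.1, 22.4 and 23.0 in PIR+ and 8.0, 17.8 and 14.7 in PIR- libraries, where PIR- replicate 2 was above PIR+ replicate 1. The difference was 0.82 ± 0.27 in KO (ratio 1.85, limma adjusted p = 0.0173) and 0.65 ± 0.27 in wt cells (ratio 1.54, adjusted p = 0.0439). It was no longer called after median-of-ratios scaling, at 0.44 in KO (adjusted p = 0.218) and 0.16 in wt (adjusted p = 0.676). The adjusted p over all alternatives ran from 0.00602 to 0.218 in KO and from 0.0156 to 0.676 in wt. The call in KO was lost without PIR+ KO replicate 3 (0.135) or PIR- KO replicate 1 (0.0702), and in wt without PIR+ wt replicate 2 (0.123), PIR+ wt replicate 3 (0.145) or PIR- wt replicate 1 (0.384). KO over wt was 0.18 ± 0.27 in PIR+ and 0.00 ± 0.27 in PIR- cells.

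Ctss, whose product processes the invariant chain in B cells and dendritic cells, did not pass the filter. It was 9.7, 5.9 and 9.9 in PIR+ KO and 1.1, 4.6 and 7.3 in PIR- KO libraries, which overlapped. In wt it was 10.8, 8.5 and 12.2 in PIR+ and 5.8, 3.1 and 4.7 in PIR- libraries, which did not. The ratios of PIR+ to PIR- means were 1.96 in KO and 2.32 in wt, and those of KO to wt means 0.81 in PIR+ and 0.956 in PIR- cells. In the fit with no filter the adjusted p for PIR+ over PIR- was 0.134 in KO and 0.079 in wt.

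Ctsc and Ctsz gave no called difference between PIR+ and PIR- cells. Cathepsin C is a dipeptidyl peptidase that activates granule serine proteases, and cathepsin Z is a carboxypeptidase. Ctsc was 7.8 to 12.2 in PIR+ KO, 2.9 to 14.7 in PIR- KO, 8.5 to 12.9 in PIR+ wt and 6.4 to 10.1 in PIR- wt libraries. Ctsz was 6.1 to 12.2, 3.7 to 11.5, 9.2 to 12.2 and 4.8 to 10.9 in those groups. All groups overlapped for both genes. PIR+ over PIR- was 0.25 ± 0.35 in both KO (adjusted p = 0.597) and wt (adjusted p = 0.554) for Ctsc, and 0.40 ± 0.35 in KO (adjusted p = 0.396) and 0.51 ± 0.35 in wt (adjusted p = 0.228) for Ctsz.

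Counted over the set, 2 of the 5 members tested between subsets, Cst3 and Ctsb, rose in PIR+ cells, in KO and in wt. The same call was made for 22.5% of the 4542 genes tested in KO and 40.6% in wt, so the members' share was near the background in wt. By overlap of libraries, 4 of 9 members were higher in PIR+ KO than in PIR- KO cells (Ctla2a, Ctla2b, Cst3 and Ctsb) and 1 was lower (Ctsl), against 35.7% and 3.43% of tested genes. In wt 3 of 9 were higher (Ctla2a, Cst3 and Ctss), against 47.6%. For KO over wt, Ctla2a, Ctla2b and Cstb lay higher without overlap in PIR+ cells, against a background of 8.04%, and Ctsl alone in PIR- cells, against 14.4%. The KO over wt contrasts chose the set, through Ctla2a in PIR+ KO and Ctsl in PIR- KO cells. Those same values enter the comparison of PIR+ KO with PIR- KO cells. Ctla2b and Ctss did not pass the filter, whereas the background shares are of genes that did. Nothing is therefore read from any of these overlap counts. Of the 9 members 7 passed the filter, and in the authors' deposited table the 7 members other than Ctla2a and Ctsl had p-values of 0.0677 to 0.968 for PIR+ wt against PIR- wt.

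**Figure D2:**
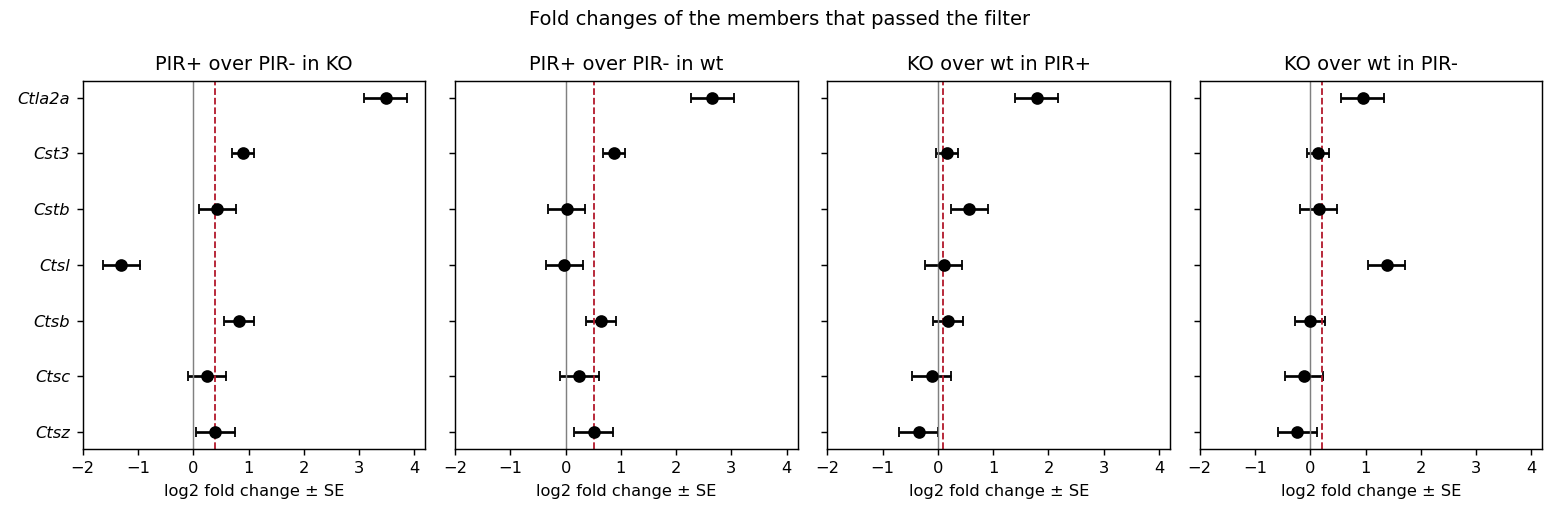
Log2 fold changes (x axes, points with bars of 1 SE) of the 7 members that passed the filter, in the 4 comparisons. The dashed line is the median of the 4542 genes tested, at 0.39 and 0.51 for PIR+ over PIR- in KO and wt and 0.09 and 0.20 for KO over wt in PIR+ and PIR-. Ctla2a stands at 1.78 for KO over wt in PIR+ cells and Ctsl at 1.38 in PIR- cells.

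The libraries also differed in markers of other cells along the same line as Cst3 and Ctsb. The 10 macrophage markers in the table, all above 0 in at least 1 library, summed to 23.6 to 54.1 in PIR+ KO, 4.4 to 8.7 in PIR- KO, 22.4 to 31.9 in PIR+ wt and 1.1 to 6.2 in PIR- wt libraries, most of it from Csf1r, a receptor gene that progenitors also express. The 5 dendritic cell markers, all above 0, summed to 57.6 to 74.4 in PIR+ KO, 19.2 to 23.3 in PIR- KO, 77.8 to 96.3 in PIR+ wt and 7.8 to 14.2 in PIR- wt libraries, with Flt3, which early lymphoid progenitors also express, as the main part. The part of such cells in the higher Cst3 and Ctsb was not tested. Erythroid markers, 9 of 9 above 0, varied within every group, from 27.8 to 894.9 in PIR+ wt and most widely, from 29.1 to 1804.1, in PIR+ KO libraries. The globin genes Hbb-y, Hba-x and Hbb-bh1 reached 773.1, 98.8 and 44.8 in PIR+ KO libraries. In the other groups they were at most 2.7, 0.7 and 0.7. Without the 5 globin-rich libraries Cst3 was called in both genotypes, whereas Ctsb was called in wt (adjusted p = 0.0331) and not in KO (adjusted p = 0.0943).

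The genes whose profile over the 12 libraries was most like that of Ctla2a were Jup, Arpc2, Msrb3, Vcl and March6, with Pearson r of 0.976, 0.974, 0.972, 0.97 and 0.967 on log2(value + 1). Jup encodes the junction protein plakoglobin and Vcl the adhesion protein vinculin, and Arpc2 encodes a subunit of the Arp2/3 actin complex. Vcl was 27.9 to 38.8 in PIR+ KO, 5.2 to 8.1 in PIR- KO, 11.4 to 18.3 in PIR+ wt and 3.1 to 3.2 in PIR- wt libraries. For Ctsl the likeness was lower: Rabggtb, Rere, Fem1b, Usp24 and Frg1 had r of 0.828, 0.795, 0.746, 0.738 and 0.734. Rabggtb, a subunit gene of the enzyme that attaches geranylgeranyl groups to Rab proteins, was 13.8 to 19.6 in PIR- KO and 10.1 to 14.3 in PIR- wt libraries. The points share libraries and library sums, so these values are descriptions over 12 libraries in 4 groups. After median-of-ratios scaling r ran from 0.924 to 0.964 for the genes like Ctla2a and from 0.773 to 0.911 for those like Ctsl.

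Other genes of the protease and lysosome system were taken from lists of 143 genes, of which 142 were in the table, 110 were above 0 in some library and 37 passed the filter. Of these 37, 21 rose and 2 fell in PIR+ relative to PIR- KO cells, with a median log2 difference of 0.73 against 0.39 for all genes tested. In wt 25 rose and 3 fell, with a median of 0.83 against 0.51. Over all genes tested, 22.5% rose and 2.97% fell in KO, and 40.6% rose and 3.72% fell in wt. After median-of-ratios scaling the listed genes split into 4 higher and 2 lower in KO and 13 higher and 3 lower in wt. On that scale 8.12% of all genes rose and 7.51% fell in KO, so the listed share in KO was near the background, and 11.5% rose and 11.0% fell in wt. The 23 calls in KO became 11 without PIR+ KO replicate 3 and 13 without PIR- KO replicate 1.

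By role, the lysosomal hydrolases and their cofactors moved both ways. Of 8 tested, 4 rose and 2 fell in PIR+ KO cells, and 6 rose and 2 fell in PIR+ wt cells. The shares over all genes tested were 22.5% and 2.97% in KO and 40.6% and 3.72% in wt. After median-of-ratios scaling 2 of the 8 rose and 2 fell in KO, and 3 rose and 2 fell in wt. On that scale 8.12% of all genes rose and 7.51% fell in KO, and 11.5% rose and 11.0% fell in wt. Without PIR- KO replicate 1 there were 3 calls in KO. Gusb, encoding beta-glucuronidase, averaged 44.0 ± 4.33 in PIR+ KO and 15.8 ± 3.57 in PIR- KO libraries, and 42.3 ± 3.12 in PIR+ wt and 12.8 ± 1.64 in PIR- wt libraries (SD, n = 3; adjusted p = 7.92e-07 and 1.1e-08). Man2b1, the lysosomal alpha-mannosidase gene, rose by 1.54 ± 0.28 in KO and 1.65 ± 0.28 in wt (adjusted p = 6.49e-06 and 8.88e-07). The genes that fell were Ifi30, encoding the lysosomal thiol reductase GILT, and Ppt1, encoding a palmitoyl-protein thioesterase. Ifi30 averaged 3.70 ± 0.625 in PIR+ KO and 18.0 ± 4.80 in PIR- KO libraries, and 4.17 ± 0.404 in PIR+ wt and 18.5 ± 4.10 in PIR- wt libraries (adjusted p = 6.07e-07 and 1.45e-06). Gusb, Man2b1 and Ifi30 were called in both genotypes under all 19 alternatives.

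In the lysosomal membrane list 4 of 6 tested genes rose in each genotype, against 22.5% of all genes tested in KO and 40.6% in wt. They were led by Laptm5, a lysosomal transmembrane protein gene of blood cells. Laptm5 averaged 49.4 ± 6.34 in PIR+ KO and 11.4 ± 1.85 in PIR- KO libraries, and 48.3 ± 13.1 in PIR+ wt and 6.07 ± 1.62 in PIR- wt libraries (adjusted p = 1.98e-10 and 8.11e-17), and was called under all 19 alternatives. After median-of-ratios scaling the list had 1 call in KO and 2 in wt, where 8.12% of all genes rose in KO and 11.5% in wt. Of 14 tested genes of the vacuolar proton pump, which acidifies lysosomes, 8 rose in each genotype, against the same 22.5% and 40.6% of all genes. Atp6v0c was among them, at 1.06 ± 0.32 in KO and 1.13 ± 0.32 in wt (limma adjusted p = 0.00923 and 0.00332). These pump calls depended on the scale and on single libraries. After median-of-ratios scaling limma called 0 in KO, where 5 had an unadjusted p under 0.05, and 2 in wt. The shares of all genes that rose on that scale were 8.12% and 11.5%. Without the globin-rich libraries it called 1 of 12 in KO and 0 in wt, where 6 had an unadjusted p under 0.05. Leaving out PIR+ KO replicate 3 left 1 call in KO, leaving out PIR- KO replicate 1 or 2 left 2, leaving out PIR+ KO replicate 1 left 4 and leaving out PIR+ wt replicate 2 left 5. In wt 5 were left when PIR+ wt replicate 3 was dropped. Among the sorting genes M6pr, a mannose 6-phosphate receptor gene, rose by 0.67 ± 0.23 in KO and 1.05 ± 0.23 in wt (adjusted p = 0.0251 and 0.000179). The M6pr call in wt held under all 19 alternatives, whereas that in KO was lost in 7, with adjusted p from 0.00376 to 0.282. It was 0.28 after median-of-ratios scaling (adjusted p = 0.282), and was lost without the globin-rich libraries (0.106), PIR+ KO replicate 1 (0.053), PIR+ KO replicate 3 (0.161), PIR- KO replicate 1 (0.0518) or PIR- KO replicate 2 (0.134).

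**Figure D3:**
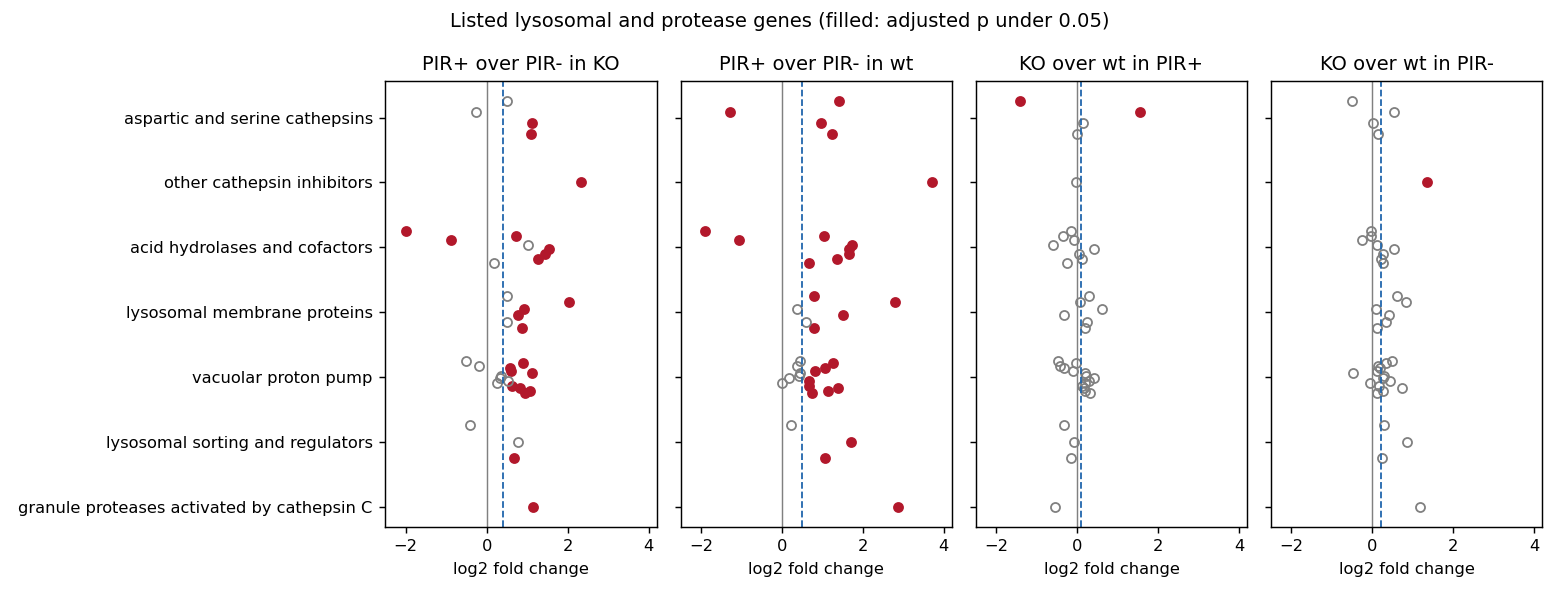
Log2 fold changes (x axes) of the listed lysosomal and protease genes that passed the filter, one row per list, in the 4 comparisons. Filled points are called at an adjusted p under 0.05 and the dashed line is the median of all genes tested. For PIR+ over PIR- 21 of 37 genes in KO and 25 in wt are called higher, while for KO over wt 2 are called in PIR+ cells and 1 in PIR- cells.

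No other cysteine cathepsin passed the filter: of 16 listed, 8 were above 0 in some library, and Ctso and Lgmn were above 0 in all 12. Lgmn, encoding legumain, was 4.9 to 9.9 in PIR+ KO, 6.9 to 8.6 in PIR- KO, 4.1 to 9.5 in PIR+ wt and 4.8 to 10.1 in PIR- wt libraries. The aspartic and serine cathepsins were measured better. Ctsd, the main aspartic cathepsin gene of lysosomes, averaged 26.2 ± 5.09 in PIR+ KO and 11.7 ± 2.79 in PIR- KO libraries, and 26.1 ± 13.1 in PIR+ wt and 11.8 ± 3.94 in PIR- wt libraries (adjusted p = 0.00178 and 0.00419). After median-of-ratios scaling the limma adjusted p of Ctsd was 0.073 in KO and 0.223 in wt. In wt it was 0.14 after library-sum scaling and 0.104 without PIR+ wt replicate 3. On the 6 libraries with matching title and markers field the Ctsd difference was 0.96 in KO and 0.98 in wt. Without the globin-rich libraries it was 0.94 and 0.98. In those 2 fits, which leave some groups with 1 library, Ctsd was called in neither genotype. Prtn3, the neutrophil proteinase 3 gene and the 1 tested substrate of cathepsin C, averaged 15.0 ± 4.25 in PIR+ KO and 6.73 ± 3.75 in PIR- KO libraries, and 22.2 ± 4.94 in PIR+ wt and 2.70 ± 2.71 in PIR- wt libraries. It was called higher in PIR+ cells in both genotypes (adjusted p = 0.0122 in KO and 1.06e-10 in wt). The Prtn3 call in wt held under all 19 alternatives. In KO it was lost after median-of-ratios scaling (0.77, adjusted p = 0.252), after library-sum scaling (0.219), with no filter (0.0979), and without PIR+ KO replicate 3 (0.13) or PIR- KO replicate 3 (0.132).

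Between KO and wt, Ctse and Napsa, a pair of aspartic protease genes, changed in opposite directions in PIR+ cells. They were the calls among the 37 listed genes there, against 0.440% of all genes called higher and 0.462% called lower. Ctse, encoding the endosomal protease cathepsin E, was 11.5, 15.2 and 13.7 in PIR+ KO and 3.2, 3.3 and 5.4 in PIR+ wt libraries. It was 13.8, 17.3 and 17.6 in PIR- KO and 7.4, 13.2 and 13.2 in PIR- wt libraries, so that PIR+ wt cells were the low group. The KO over wt difference in PIR+ cells was 1.56 ± 0.31 (limma, adjusted p = 0.000753), without overlap. Over the alternatives its adjusted p ran from 0.000332 to 0.0516, the highest when fitted on the 6 libraries with matching title and markers field, where the difference was as large, at 1.79.

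Napsa, encoding napsin A, was 7.3, 6.9 and 15.2 in PIR+ KO and 24.7, 27.0 and 27.1 in PIR+ wt libraries. It was 6.9, 5.2 and 6.6 in PIR- KO and 5.8, 10.1 and 13.2 in PIR- wt libraries, so that PIR+ wt cells were the high group. Napsa fell by 1.42 ± 0.31 in PIR+ KO relative to PIR+ wt cells (adjusted p = 0.0029). The adjusted p over the alternatives ran from 0.000603 to 0.346. It was 0.0598 without PIR+ KO replicate 2 and 0.167 with the globin-rich libraries dropped, at differences of -1.23 and -1.25, close to the full value. On the 6 libraries with matching title and markers field the difference itself was smaller, at -0.73 (adjusted p = 0.346).

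In PIR- cells the 1 listed gene called between KO and wt was Serpinb1a, which encodes an inhibitor of neutrophil serine proteases such as elastase and cathepsin G. It was named after its values were seen, since it averaged under 10 in both PIR- groups. It was 10.6, 6.3 and 7.3 in PIR- KO and 4.2, 1.5 and 2.3 in PIR- wt libraries, without overlap. The difference was 1.34 ± 0.28 (adjusted p = 0.00114), against 1.08% of all genes called higher. It was 0.58 and not called without the globin-rich libraries (adjusted p = 0.518) or on the 6 libraries with matching title and markers field (0.361), both of which leave 1 PIR- wt library. In PIR+ cells Serpinb1a was 46.7, 34.3 and 52.5 in KO and 48.2, 44.7 and 40.7 in wt libraries, with a difference of -0.02 ± 0.28 (adjusted p = 0.999). The test of the difference between the KO effects in PIR+ and PIR- cells did not call Serpinb1a (-1.36 ± 0.40, adjusted p = 0.112), Ctse (1.04 ± 0.44, 0.668) or Napsa (-0.91 ± 0.44, 0.873).

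**Figure D4:**
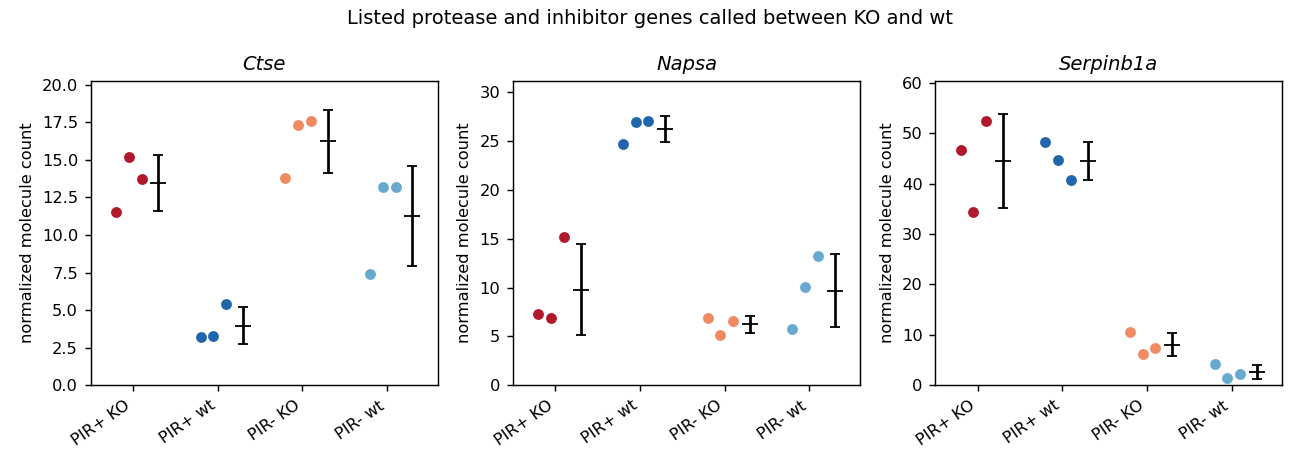
Normalized molecule counts (y axes) of Ctse, Napsa and Serpinb1a in each library, by group. Points are libraries, and the mark with bar is the mean ± SD of 3 libraries. In PIR+ cells Ctse is at 11.5 to 15.2 in KO and 3.2 to 5.4 in wt, and Napsa at 6.9 to 15.2 in KO and 24.7 to 27.1 in wt.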

How the data were processed

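The authors deposited 1 table of 23420 genes with 12 value columns, a signal of molecule counts normalized per library and rounded to 1 decimal. Per the labels' protocols, barcoded oligo-dT primers, template switching, PCR and ERCC spike-in RNA were used. Per the submitters' processing notes, TopHat2, DESeq2 and the build mm10 were used; the sources used here give neither versions nor the counting tool. The p-value columns are from the authors, and the header does not say whether they are adjusted. No value column was left unused.

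Values were not treated as whole counts. The 4542 genes that reached 10 in 3 or more libraries were fitted as log2(value + 1) on 4 group means over all 12 libraries with limma 3.58.1 (R 4.3.3, trended prior), with Benjamini-Hochberg adjusted p under 0.05 called. The added 1 understates the change of low genes. The code of the fit was checked on simulated data with a fixed spread that was not taken from these libraries. Its error rates for these libraries were not tested. Summed values were compared by exact permutation. Figures used matplotlib 3.10.9 (Python 3.11.15) and alignments Biopython 1.88.

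The members and lists were chosen with earlier results of these data known. From each list up to 4 called genes per comparison were eligible for naming, by largest fold change where the higher group averaged 10 or more, and the 5 genes most alike by Pearson r for Ctla2a and Ctsl. Alternatives were median-of-ratios and library-sum scaling, an added constant of 0.1, no filter, a replicate block, the 6 libraries with matching title and markers field, dropping the 5 globin-rich libraries, and leaving out each library.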

Additional observations from a re-analysis of the deposited data

How the results depend on the processing

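Over all genes 1158 were called for PIR+ over PIR- in KO and 2015 in wt, 41 for KO over wt in PIR+ and 59 in PIR- cells. Median-of-ratios scaling gave 710 (369 higher, 341 lower) and 1025 (524 higher, 501 lower) for the subset comparisons, and library-sum scaling gave 725 (440 higher, 285 lower) and 1073 (673 higher, 400 lower). Deposited values gave 1023 higher and 135 lower in KO and 1846 higher and 169 lower in wt. Under both scalings 1 member, Cst3, was called in each genotype, against 2. With no filter 31 genes were called for KO over wt in PIR- cells. The 6 libraries with matching title and markers field gave 748 and 958 for the subset comparisons and 22 for KO over wt in PIR+ cells. Without the 5 globin-rich libraries (PIR+ KO 1, PIR- KO 1, PIR+ wt 3, PIR- wt 2 and 3) the counts were 511, 648, 24 and 30, with 1 member called in KO. These subsets leave some groups with 1 library, which is assumed to vary like the others. In the 6 libraries with matching title and markers field, PIR sign and labelled embryonic day also cannot be told apart.

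Leaving out 1 library gave 633 to 1416 calls for PIR+ over PIR- in KO, 1288 to 2072 in wt, 27 to 45 for KO over wt in PIR+ and 33 to 87 in PIR- cells, and 1 to 2 members called in each genotype. Counts moved by over 1.5 times without PIR+ KO 3 (633) or PIR- KO 1 (719) in the KO subset comparison, PIR+ wt 3 (1288) in wt, PIR+ wt 1 (27) in the PIR+ comparison, and PIR- KO 2 (37) or PIR- KO 3 (33) in the PIR- comparison. With the replicate number as a block, KO over wt gave 62 calls in PIR+ and 209 in PIR- cells. Libraries with the same number did not deviate together (r of -0.106 to 0.162 over 18 pairs, mean -0.0096, against a mean of 0.00485 over 36 pairs with different numbers), so the numbers were not taken as pairing the libraries. No called result reversed. The KO over wt differences of Ctla2a in PIR+ and Ctsl in PIR- cells kept their direction under all 19 alternatives. Those 2 differences chose the set and their libraries do not overlap, so this is a description and no support is drawn from it. With an added constant of 0.1 the Ctla2a difference in PIR- cells was 2.08, and leaving out 1 library put the Ctsl difference in PIR+ cells at -0.26 to 0.34. Members with values of a few molecules, Ctla2b and Ctla2a in PIR- cells, are limited by depth.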
